A study of Mus musculus with 6 samples.

Results

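Integrins that bind laminin or collagen were followed in mouse myoblasts, the proliferating cells that form skeletal muscle, grown for 72 hours on fibronectin or on collagen I. The genes were the collagen receptor subunits Itga1, Itga2, Itga10 and Itga11, the laminin receptor subunits Itga3, Itga6 and Itga7, and Itgb4, the beta subunit that pairs with Itga6. They were chosen by name, and every probe set annotated with exactly 1 of these symbols was kept, which gave 11 of the 45101 probe sets on the array. These 11 probe sets covered 7 of the 8 genes. No probe set carried the symbol Itga11 in the annotation used here, and its level was not analysed here.

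Hindlimb muscle was the source of the cells, taken from male mice of the strain C57BL/6JRj between 9 and 15 weeks old, with no transgene or mutation named in the labels. One group of 3 samples was plated on fibronectin and the other of 3 samples on collagen I, and both grew in Ham's F-10 with 20% fetal bovine serum, 2.5 ng/ml basic fibroblast growth factor and antibiotics. Total RNA was labelled with biotin and hybridised to an Affymetrix mouse expression array, whose deposited values are log2 probe set signals. The labels do not say whether samples of a coating came from separate animals or cultures, so each p-value reflects the variation among these 6 samples only, and that variation may be technical. In such bulk RNA fewer cells that express a gene and less RNA per cell cannot be told apart.

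Integrins are receptors built of an alpha and a beta subunit that join the extracellular matrix to the actin cytoskeleton or, in the case of Itgb4, to intermediate filaments at hemidesmosomes. Itga1, Itga2, Itga10 and Itga11 pair with Itgb1 and bind collagens through an inserted domain of the alpha chain. Itga3, Itga6 and Itga7 lack that domain, pair with Itgb1 and bind laminins, the main glycoproteins of the basement membrane that surrounds each muscle fibre and its stem cells. Itga7 is the principal laminin receptor subunit of differentiated skeletal muscle, where it is enriched at the ends of fibres. None of these alpha subunits is a classical fibronectin receptor, whereas collagen I is a ligand of the collagen-binding ones.

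On fibronectin, cells had more signal for the laminin receptor subunit Itga6 than on collagen I, and for Itga3 at its brightest probe set. Itga6 rose 1.36-fold and 1.38-fold at its pair of probe sets, and Itga3 rose 1.22-fold at its brightest. At its other tested probe set, and with its probe sets averaged, Itga3 did not pass the test. Itga7, Itgb4 and the shared partner Itgb1 had log2 changes between -0.03 and 0.01 at their brightest probe sets and did not pass the test. The collagen-binding subunits Itga1, Itga2 and Itga10 lay below the brightness filter, which was set on the mean of all 6 samples. In limma's test of all probe sets that passed the filter, with Benjamini-Hochberg adjustment and a threshold of 0.05, 3 of the 6 tested probe sets of these genes were called, all of them higher on fibronectin. The median log2 change of the 6 was 0.20, and both probe sets of Itga6 were among the 3 called. At the brightest probe set of each gene, 2 of 4 tested genes were higher, with a median of 0.13. Of all genes taken in that way, 35.5% were called and 17.2% were higher.

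Those counts stand in an array on which many genes differed between the samples of the coatings. Of 22519 probe sets tested, 7198 or 32% were called, 16.2% higher and 15.8% lower on fibronectin, and the median log2 change over all of them was 0.01. The filter asked for a mean over all 6 samples of at least 2.32, the median over all probe sets other than controls, and it did not use the coating. It let through 6 of the 11 probe sets, which belong to 4 of the 7 genes. Signals of different probe sets do not measure relative amounts of RNA, so no subunit is called more abundant than another here.

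**Figure D1:**
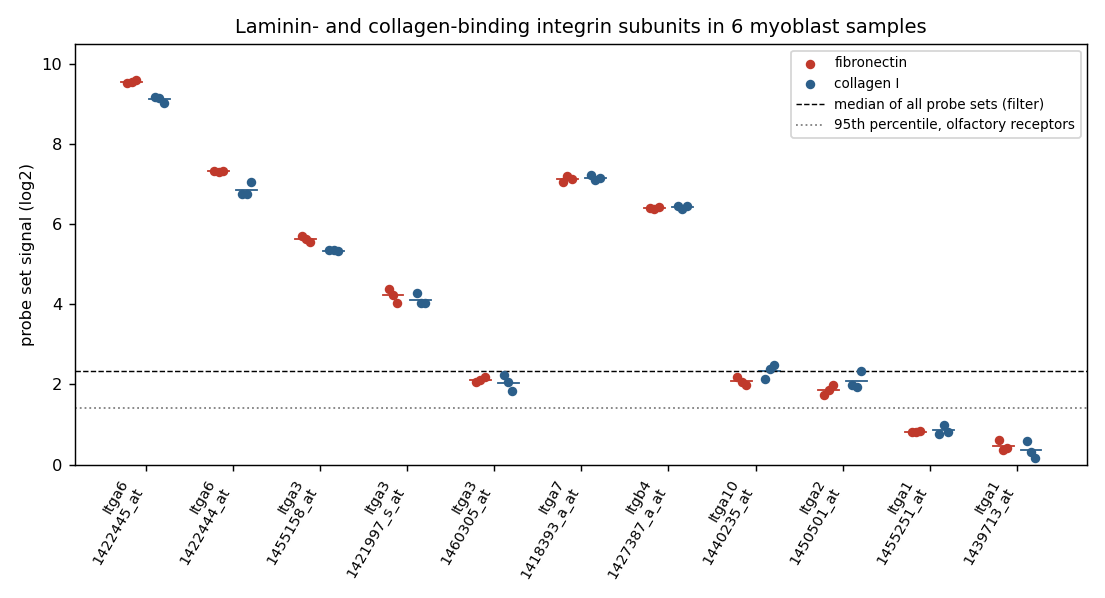
Log2 signal (vertical axis) of all 11 probe sets in each of 3 fibronectin samples (red, left of each pair) and 3 collagen I samples (blue), with a line at each group's mean. The dashed line is the filter at 2.32 and the dotted line, at 1.42, is the 95th percentile of probe sets for olfactory receptors. The fibronectin points of both Itga6 probe sets and of the brightest Itga3 probe set lie above all their collagen I points.

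Itga6, which forms laminin receptors with Itgb1 or Itgb4, was measured by 2 probe sets designed on the same sequence record. Probe set 1422445_at had signals of 9.54, 9.56 and 9.59 on fibronectin, against 9.18, 9.14 and 9.03 on collagen I. Every fibronectin sample was above every collagen I sample. The means were 9.56 ± 0.03 on fibronectin and 9.12 ± 0.08 on collagen I (SD, n = 3 each), a log2 change of 0.44 with an SE of 0.056 and a limma adjusted p of 0.00124. The 95% interval of the fold change ran between 1.24 and 1.49.

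Probe set 1422444_at of Itga6 gave 7.33, 7.31 and 7.33 on fibronectin, against 6.76, 6.76 and 7.07 on collagen I. The groups did not overlap, and collagen I replicate 3 was the highest of its group. The log2 change was 0.46 with an SE of 0.085 and a limma adjusted p of 0.00604. Among all tested probe sets 47.7% had coatings that did not overlap, so separation of the samples is common here. Of all probe sets called higher on fibronectin, 20.8% changed by more than Itga6 did at 1422445_at, and the median rise among those called was 0.30.

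Itga3, another alpha subunit of laminin receptors with Itgb1, was measured by 3 probe sets that differed in brightness and in result. Probe set 1455158_at had signals of 5.72, 5.64 and 5.55 on fibronectin, against 5.35, 5.34 and 5.34 on collagen I. All fibronectin samples were higher, and the fibronectin samples spread more widely, with an SD of 0.082 on fibronectin and 0.0061 on collagen I. The log2 change was 0.29 (SE 0.056, limma adjusted p = 0.00673), with a 95% interval of 1.12-fold to 1.34-fold. Among the probe sets called higher on fibronectin, 52.9% changed by more than Itga3 did at 1455158_at.

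Probe set 1421997_s_at of Itga3 gave 4.37, 4.24 and 4.04 on fibronectin, against 4.28, 4.03 and 4.03 on collagen I. The groups overlapped, and the log2 change of 0.11 did not pass (limma adjusted p = 0.468, 95% interval 0.912-fold to 1.27-fold). This interval overlaps that of 1455158_at. The suffix of 1421997_s_at marks probes that may bind transcripts of more than a single gene, which was not tested. The dimmest of the 3, 1460305_at, was below the filter, with 2.05, 2.11 and 2.19 on fibronectin and 2.22, 2.07 and 1.84 on collagen I. Its samples overlapped as well, with a log2 change of 0.07. Both 1421997_s_at and 1460305_at were designed on the same sequence record, and 1455158_at on another. With the 3 probe sets of Itga3 averaged, the log2 change was 0.16 and the call was lost (limma adjusted p = 0.0823).

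The RefSeq promoter table, built on GRCm38.p6, held windows for 5 of the 8 genes and, of the subunits that rose, for Itga3 alone. The window of its upstream start is shown because Itga3 is the called gene whose start region was at hand. It spans 250 bases before to 50 bases after the transcript start at chr11:95076665-95076964, on the minus strand, and capitals mark matches on either strand to an E-box (CANNTG) or a GC box (GGGCGG), which do not overlap each other.
Itga3 promoter: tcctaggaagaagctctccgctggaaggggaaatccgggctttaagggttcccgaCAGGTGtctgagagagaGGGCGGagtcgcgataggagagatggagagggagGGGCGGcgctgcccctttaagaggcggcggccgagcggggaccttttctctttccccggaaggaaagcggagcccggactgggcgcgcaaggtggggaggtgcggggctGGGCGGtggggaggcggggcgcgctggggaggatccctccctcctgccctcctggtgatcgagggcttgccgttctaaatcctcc
The window held 1 E-box and 3 GC boxes. Among all 32851 windows, 72.3% held at least 1 E-box and 35.7% at least 1 GC box. The letters TATAAA and TGANTCA, searched on both strands, were not in this window, and 13.6% and 7.81% of all windows held them. The window of the other Itga3 start in that table, chr11:95069149-95069448, held 1 match to TGANTCA, 1 E-box and 1 GC box, and 0 to TATAAA. The array did not measure where transcripts start.

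Itga7, also an alpha subunit of laminin receptors with Itgb1, had a single probe set, 1418393_a_at. Its signals were 7.04, 7.21 and 7.14 on fibronectin, against 7.22, 7.11 and 7.15 on collagen I. The groups overlapped, with a log2 change of -0.03 (SE 0.060, limma adjusted p = 0.716). The 95% interval of 0.887-fold to 1.08-fold ended below 1.24-fold, the lower bound of Itga6 at 1422445_at. The suffix of this probe set marks probes shared by several transcripts of the same gene, so splice forms of Itga7 were not separated.

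Itgb4, whose long cytoplasmic tail binds plectin in hemidesmosomes, was at 6.39, 6.37 and 6.42 on fibronectin and at 6.46, 6.37 and 6.45 on collagen I at probe set 1427387_a_at. The samples overlapped and lay within 0.1 of each other on the log2 scale. The log2 change was -0.03 (SE 0.049, limma adjusted p = 0.649), with a 95% interval of 0.904-fold to 1.06-fold. Itgb1, the partner of every alpha subunit described here, was at 7.97, 7.91 and 8.0 on fibronectin and at 7.96, 7.92 and 7.97 on collagen I at its brightest probe set, 1426918_at. Its log2 change was 0.01 (SE 0.049, limma adjusted p = 0.882), and 2 further tested probe sets of Itgb1 gave -0.05 and -0.16 and did not pass.

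**Figure D2:**
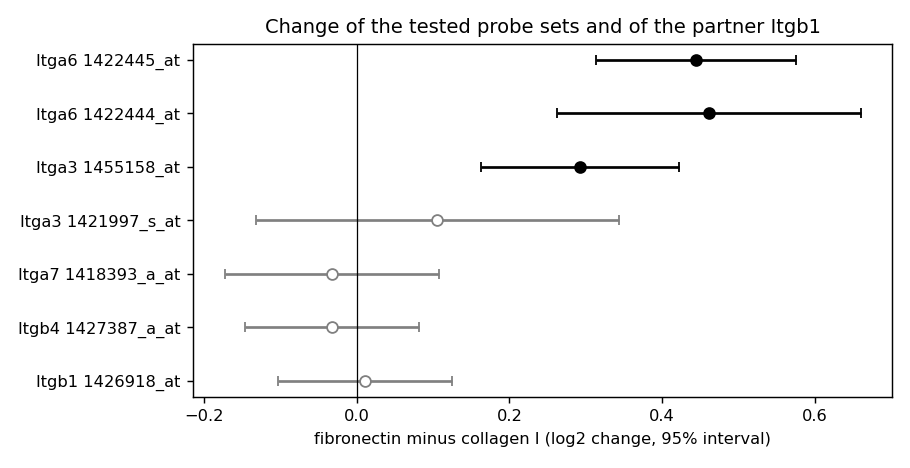
Log2 change, fibronectin minus collagen I, with its 95% interval from limma (horizontal axis), for the 6 tested probe sets and for the brightest probe set of Itgb1 (rows). Filled black points passed an adjusted p of 0.05, and open grey points did not. The Itga6 intervals start at 0.31 and 0.26, while those of Itga7, Itgb4 and Itgb1 include 0.

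The difference between these changes was tested within samples, as the signal of a subunit minus that of another at their brightest probe sets. Itga6 changed by 0.48 more than Itga7 on the log2 scale, by 0.48 more than Itgb4 and by 0.43 more than Itgb1, and in each case the samples of the coatings did not overlap. Itga3 changed by 0.32 more than Itga7, by 0.32 more than Itgb4 and by 0.28 more than Itgb1, again without overlap. Itga6 against Itga3 gave a difference of 0.15, with overlapping samples and an exact two-sided permutation p of 0.2. The other 6 of the 7 pairs had an exact permutation p of 0.1, the smallest that 3 samples against 3 allow, and an adjusted p of 0.117, so no pair could pass 0.05. Each of those 6 set a called subunit against an uncalled one. A gap between their changes followed from that choice and is no further support.

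The collagen-binding subunits were all below the filter, and Itga1 was at the floor of the array. As a yardstick, 44 probe sets of olfactory receptor genes, which muscle cells are not known to use widely, had means with a median of 0.87, a 95th percentile of 1.42 and a highest value of 1.64. Itga1, a subunit of a receptor for collagens I and IV, lay inside that range at both of its probe sets. Probe set 1455251_at read 0.82, 0.81 and 0.84 on fibronectin and 0.76, 0.99 and 0.82 on collagen I, and 1439713_at read 0.61, 0.37 and 0.41 on fibronectin and 0.60, 0.31 and 0.16 on collagen I. The coatings overlapped at both probe sets.

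Itga2, a subunit of a receptor for fibrillar collagens known from platelets and epithelium, was above that range and below the filter at 1450501_at. It read 1.75, 1.85 and 1.99 on fibronectin, against 1.98, 1.93 and 2.34 on collagen I. Itga10, a collagen receptor subunit known from cartilage, read 2.19, 2.05 and 1.98 on fibronectin and 2.14, 2.39 and 2.47 on collagen I at 1440235_at. In both genes the samples overlapped, and collagen I replicate 3 was the highest value. The collagen I mean of Itga10, 2.33, was at the level of the filter, and its fibronectin mean was 2.07.

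Neither was tested with the filter in place. When all probe sets were tested without it, Itga2 had a log2 change of -0.22 (limma adjusted p = 0.329) and Itga10 one of -0.26 (limma adjusted p = 0.173). The 95% interval of the log2 change of Itga10 lay between -0.50 and -0.02, and that of Itga2 between -0.50 and 0.06. A dim probe set can also be a poor one, so a low signal does not show that a transcript was absent.

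Genes were compared with these subunits for likeness of pattern, as the root mean square difference of log2 signals over the 6 samples after centring each gene on its own mean. Closest to Itga6 were Chek2, a DNA damage checkpoint kinase, at 0.020 and Ncaph, a condensin subunit, at 0.023. Chek2 had a log2 change of 0.46 and Ncaph one of 0.44. Closest to Itga3 were Cenpu, a centromere protein, at 0.014 and Timm8a1, a mitochondrial import chaperone, at 0.018, with log2 changes of 0.28 and 0.31. With 6 samples in 2 groups such likeness cannot be told apart from a difference between the coatings that the genes share.

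Genes around these receptors were read from lists, each gene at its brightest probe set. Of all 10950 genes tested in that way 35.5% were called, 17.2% higher and 18.4% lower, with a median log2 change of 0.00. The integrin subunits outside the laminin and collagen receptors had 2 higher and 1 lower among 9 tested, with a median of 0.08. Itga4, a receptor subunit for fibronectin and Vcam1, rose 1.45-fold (limma adjusted p = 0.00161). With probe sets averaged Itga4 lay below the filter and was not tested, and the list then had 0 higher genes. Itga8, at 2.66 on fibronectin and 2.21 on collagen I, passed the filter only through its fibronectin samples, and it rose 1.37-fold (limma adjusted p = 0.0405). Itgb5, a vitronectin receptor subunit, fell by 0.28 on the log2 scale (limma adjusted p = 0.0302). The call of Itga8 was lost without collagen replicate 1 or 3 or any single fibronectin replicate (limma adjusted p 0.0509 to 0.121), and that of Itgb5 without any single fibronectin replicate (0.0555 to 0.0962).

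Laminins are the ligands of Itga6, which rose, and of Itga3, which rose at its brightest probe set. Of 6 tested laminin chains 0 were higher and 1 lower, with a median log2 change of 0.02. Lama5, an alpha chain of basement membrane laminins, fell by 0.27 on the log2 scale (limma adjusted p = 0.0367), a call lost on leaving out collagen replicate 1 or 2 or fibronectin replicate 1 or 3 (0.0988 to 0.111). Lama2, the alpha chain of the main muscle laminin, had a log2 change of 0.04, and Lamb1 and Lamc1 had 0.04 and 0.11, none of which passed. Lama1, which forms the embryonic laminin, was below the filter with means of 1.00 on fibronectin and 0.90 on collagen I.

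Collagen chains that integrins bind had 5 higher and 2 lower members among 11 tested, with a median of 0.21, and 12 of 23 were below the filter. The lower genes were Col6a1 and Col5a3, and Col5a3, at 2.25 on fibronectin and 2.54 on collagen I, passed the filter only through its collagen I samples. Leaving out any sample but fibronectin replicate 2 gave 1 lower chain in place of 2. Col5a1, a chain of a fibril-nucleating collagen, rose 2.54-fold, and the basement membrane chains Col4a1 and Col4a2 each rose 1.58-fold, with limma adjusted p of 2.81e-05, 0.000397 and 0.000167. Col5a2 rose by 0.52 on the log2 scale (limma adjusted p = 0.000443). Col1a1, a chain of the collagen that coated the dishes of one group, was below the filter, with a mean of 0.76 on fibronectin and 0.69 on collagen I.

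Receptors for the same ligands that are not integrins were split, with 2 higher and 4 lower of 12 tested and a median of 0.03. Leaving out collagen replicate 2 or 3 or fibronectin replicate 1 or 3 gave 1 higher, and leaving out fibronectin replicate 1 gave 2 lower. Ddr2, a receptor kinase for fibrillar collagens, rose 1.24-fold, with samples that did not overlap (limma adjusted p = 0.00539). Dag1, the dystroglycan that binds laminin, was at 7.06 ± 0.07 on fibronectin and 7.32 ± 0.01 on collagen I (SD, n = 3 each) and fell by 0.25 on the log2 scale (limma adjusted p = 0.00928). The syndecan Sdc3 fell by 0.51 and the collagen receptor kinase Ddr1 by 0.27 on that scale (limma adjusted p = 0.000572 and 0.0179). Ddr1 lost its call without collagen replicate 2 or fibronectin replicate 1 (limma adjusted p = 0.0527 and 0.0622).

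Of 23 tested integrin activators and adaptors 3 were higher and 5 lower, with a median of -0.04. Talin, Tln1, which binds beta tails and activates integrins, was at 7.76 ± 0.01 on fibronectin and 8.23 ± 0.08 on collagen I (SD, n = 3 each) and fell by 0.47 on the log2 scale (limma adjusted p = 0.000882). The adaptors Tns1 and Kank1 fell by 0.71 and 0.73, and the actin crosslinker Flnc rose by 0.34 (limma adjusted p = 0.000507, 0.00188 and 0.00376). The signal of Kank1 on fibronectin, 2.18, was below the filter level.

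Tetraspanins, which associate laterally with laminin-binding integrins, and hemidesmosome partners had 3 higher and 2 lower of 15 tested, with a median of -0.04. The list also held Basp1, Cd47, Ptgfrn, Igsf8 and Bsg, which belong to neither class. With only Basp1 left out, 2 were higher and 2 lower of 14 tested, and these still included Cd47 (higher) and Ptgfrn (lower). The others were Tspan9 (higher) and Cd9 (lower). Cd47 rose by 0.18 on the log2 scale (limma adjusted p = 0.0406). In the full list, leaving out any sample but fibronectin replicate 3 gave 2 higher in place of 3. Testing without the filter gave 0 higher and 1 lower. Cd9 fell by 0.62 on the log2 scale (limma adjusted p = 0.000187), with means of 9.25 on fibronectin and 9.87 on collagen I. Cd151, the tetraspanin that binds Itga3 and Itga6 directly, had a log2 change of 0.13 and did not pass (limma adjusted p = 0.0638). Tspan9 rose by 0.26 and Ptgfrn fell by 0.22 (limma adjusted p = 0.0127 and 0.0242), and Basp1 rose by 0.21 (limma adjusted p = 0.00972). Ptgfrn lost its call on leaving out any of 4 samples, collagen replicate 1 or 2 or fibronectin replicate 1 or 3 (limma adjusted p 0.0512 to 0.0781).

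Plec and Dst, which link Itgb4 to intermediate filaments, had means of 9.65 and 8.84 on fibronectin and 9.79 and 8.92 on collagen I, with log2 changes of -0.14 and -0.08 that did not pass. The epithelial hemidesmosome genes Col17a1 and Krt14 were below the filter, with means of 0.97 and 0.82 on fibronectin and 1.16 and 0.93 on collagen I. The keratin Krt5 was also below it over all samples, at 2.13 on fibronectin and 2.41 on collagen I.

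**Figure D3:**
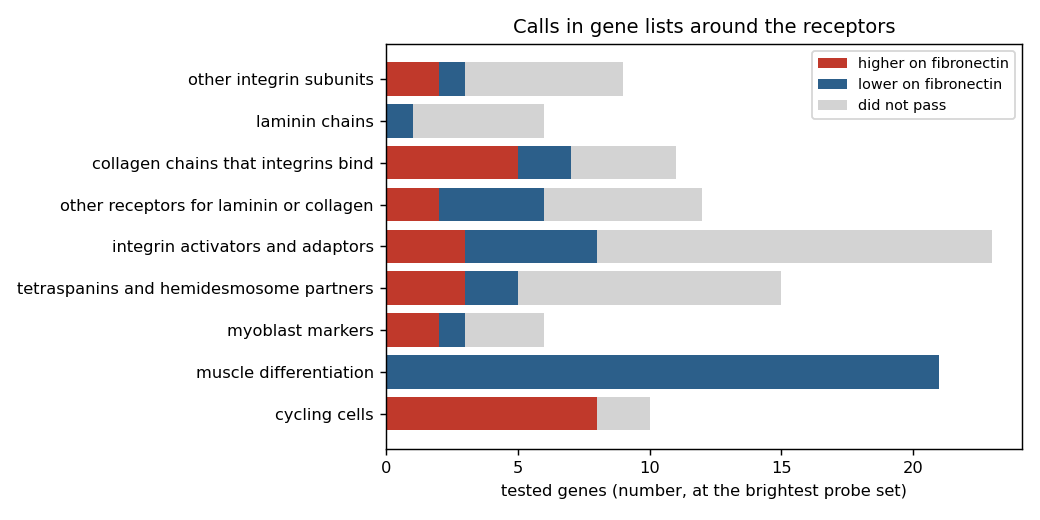
Number of tested genes (horizontal axis) that were higher on fibronectin (red), lower (blue) or did not pass limma's test (grey), for each list with at least 5 tested genes (rows). The muscle differentiation list has all 21 of its tested genes lower and the cycling list 8 of 10 higher. Over all genes at their brightest probe set 35.5% were called. The share was 33.3% of other integrin subunits, 16.7% of laminin chains, 63.6% of collagen chains and 50% of other receptors. It was 34.8% of adaptors, 33.3% of tetraspanins and hemidesmosome partners, and 50% of myoblast markers. The called genes of the tetraspanin list include Basp1, Cd47 and Ptgfrn, which are neither tetraspanins nor hemidesmosome genes.

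The myoblast label was checked against markers, and signals of differentiation and cycling genes differed between the coatings. All 7 myoblast markers had a probe set, 6 were tested, and the summed unlogged signal of the 7 ranged between 2601 and 2704 on fibronectin and between 2549 and 2670 on collagen I. Vcam1 and Cdh15 rose by 0.31 and 0.24 on the log2 scale and Des fell by 0.23 (limma adjusted p = 0.00431, 0.0181 and 0.0301), and the calls of Cdh15 and Des were lost on leaving out any of 3 samples (collagen replicate 2 or 3 or fibronectin replicate 2) and any of 5 samples (all but fibronectin replicate 2), at limma adjusted p of up to 0.0550 and 0.0878. Of 21 tested genes of muscle differentiation 21 were lower on fibronectin, among them Musk, Tnni1, Mef2c and Tnnt2, with a median log2 change of -0.83, and the summed signal of the 23 with a probe set was 2637 to 2658 on fibronectin and 3708 to 3850 on collagen I. The largest part of that sum came from Chrna1, at a log2 signal of 10.81 on fibronectin and 11.13 on collagen I. Of 10 tested genes of cycling cells 8 were higher, led by Aurka, Ccna2, Cdk1 and Top2a, and the sum was 6136 to 6191 on fibronectin and 5036 to 5196 on collagen I. The part of either in the rises of Itga6 and Itga3 was not tested.

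Markers were also read for other cells that can express laminin- or collagen-binding integrins. None of the 6 endothelial markers passed the filter, and their summed signal was 15.0 to 15.4 on fibronectin and 14.8 to 15.9 on collagen I. Among Schwann and glial markers 1 of 3 tested was called, Ngfr, which fell by 1.38 on the log2 scale, and the sum of the 4 with a probe set was 36.4 to 43.7 on fibronectin and 57.1 to 57.8 on collagen I. Of 3 tested macrophage and leukocyte markers Cd68 and Cd14 were lower, the pan-leukocyte gene Ptprc was at 0.53 on fibronectin and 0.47 on collagen I, and the sum of 6 was 35.8 to 41.2 on fibronectin and 52.9 to 59.7 on collagen I.

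Fibroblast markers had 1 of 2 tested genes called, Col3a1, which rose by 0.21, and the median log2 change of the pair was -0.05. The other, Thy1, had a log2 change of -0.32 that did not pass (limma adjusted p = 0.0535). Sums over 7 genes were 733 to 785 on fibronectin and 623 to 686 on collagen I, and without Col3a1 they were 15.5 to 17.4 on fibronectin and 17.6 to 18.7 on collagen I. Col3a1 lost its call without collagen replicate 3 or fibronectin replicate 2 or 3 (limma adjusted p 0.0702 to 0.0863), and the defining genes Lum, Pdgfra, Dcn and Fap were below the filter, with log2 changes of 0.02, 0.58, -0.33 and -0.55. Smooth muscle and pericyte markers had Rgs5 lower by 1.24 on the log2 scale and Acta2 higher by 0.21, with sums over 6 genes of 1281 to 1353 on fibronectin and 1434 to 1490 on collagen I. Acta2 lost its call on leaving out any of 5 samples, all but fibronectin replicate 3 (limma adjusted p 0.0591 to 0.0947). The part of these lists in the integrin results was not tested.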

How the data were processed

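The authors deposited log2 probe set signals of 6 samples, made with Affymetrix Expression Console and RMA per the submitters' processing notes. RMA corrects background, normalises arrays by quantiles and compresses changes of dim probe sets. The sources used here give neither versions nor settings nor scan dates, and no batch was tested. Values were used as deposited, with medians between 2.29 and 2.38 over samples. Correlations across probe sets were 0.997 to 0.998 within a coating and 0.994 to 0.995 between coatings.

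Symbols came from the platform annotation, updated through GRCm38.p6 for 18032 of 18194 gene identifiers. Of 45037 probe sets other than the 64 controls, 34945 had 1 symbol, 932 several and 9160 none. Limma 3.58.1 in R 4.3.3 (lmFit, eBayes, two-sided, fibronectin minus collagen I, no covariates) tested probe sets with a mean of at least 2.32, with Benjamini-Hochberg adjustment. Residual and prior degrees of freedom were 4 and 3.58. Array signals carry no molecule counts, and the errors given come from the 3 samples of each coating. The samples' replicate numbers were not taken to pair them.

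The fit was tested on simulated data of this comparison with 22519 probe sets, of which 200 were changed. Of those changed 1.25-fold, 1.5-fold, 2-fold and 3-fold, 32%, 66%, 94% and 100% were recovered, with 6 false calls among 152. In the data 7198 probe sets were called, many more than were changed in the simulation. The recovery shares therefore need not hold here. Named were all subunits chosen, up to 4 called genes per list by smallest p, Itgb1 and the 2 genes closest in pattern to each called subunit. Further genes were named after their values were seen, as context. The subunits and lists were chosen with earlier results of these data known. Alternatives covered the filter, scaling, probe set choice, variance model, array weights, replicate block, left-out samples and a stricter threshold. Figures used Python 3.11.15 and matplotlib 3.10.9.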

Additional observations from a re-analysis of the deposited data

How the results depend on the processing

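Itga6 kept its direction and its call at 1422445_at in 16 of 16 alternatives, with log2 changes of 0.40 to 0.50, and at 1422444_at in 14 of 14, at 0.41 to 0.56. Itga3 at 1455158_at kept both in 15 of 16, the exception being the mean over its probe sets (0.16). Itga7 changed sign with samples centred on their medians (0.023) and without fibronectin replicate 1 (0.0113; with any 1 sample left out, -0.0717 to 0.0113), and Itgb4 with centring (0.0232), none past the threshold. Itgb1 changed sign with its probe sets averaged (-0.00365), without collagen replicate 2 (-0.00506) and without fibronectin replicate 3 (-0.00957, the range with any 1 sample left out being -0.00957 to 0.0352), likewise not past it. The subunits had 3 called probe sets in all alternatives that test probe sets, with any sample left out too (lowest 3, highest 3), 2 called genes at the brightest probe set and 1 with probe sets averaged. Over the whole array, 7198 calls became 4583 without the filter, 3647 at a threshold of 0.01, 4383 genes at their brightest probe set and 3885 with probe sets averaged, and 5140 to 6507 with 1 sample left out. Centring made 66.4% of calls higher on fibronectin, in place of 50.7%, as the sample medians differed by -0.06, fibronectin minus collagen I. Same-numbered samples had deviations from their group means correlated at 0.12, -0.00425 and 0.08, so the numbers were taken as names only, and with the replicate number as a block 6734 probe sets were called, 3 of them of these subunits. Counts in most lists moved more. Other integrin subunits ranged from 0 to 4 higher, and laminin chains from 0 to 1 higher and from 0 to 1 lower. Integrin-bound collagen chains ranged from 4 to 6 higher and from 0 to 3 lower. Other receptors ranged from 1 to 3 higher and from 2 to 4 lower, and adaptors from 1 to 5 higher. Tetraspanins and hemidesmosome partners ranged from 0 to 5 higher and from 1 to 6 lower. Muscle differentiation had 20 or 21 lower in all alternatives but the filter at the 75th percentile. That filter left fewer of its genes to test and gave 12 lower. Subunits below the filter were tested only without it. Signals at the floor for Itga1, and dim ones below the filter for Itga2 and Itga10, limit what can be said of these subunits.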
